A study of Homo sapiens with 54 samples.

Results

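The account covers macrophages kept in 3D culture with FBS in the sample title, followed from day 16 through day 19 to day 23. Their 9 bulk RNA libraries, 3 per day, were chosen by title alone, out of 32 bulk RNA libraries and 54 samples of all kinds in the series. The cells were derived from H1, an established line of human embryonic stem cells, and the series asks how a porous 3D microscaffold shapes macrophage production beside flat 2D culture. All 9 libraries share the H1 line, the 3D protocol and the macrophage label, and no gene edit, drug or microbe is named for them. The comparison groups, 3D at days 16, 19 and 23 without FBS in the title, hold 3 libraries each and carry the same labels otherwise. FBS is not spelled out in the labels, which give neither its amount nor the day it was added. One line was used, and nothing says that the 3 libraries of a day came from separate cultures, so p-values measure only the spread between these libraries, which may be technical.

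Macrophages sense, engulf and digest, and their gene programme follows the signals around them. Tissue-resident macrophages carry scavenger receptors, complement C1q and the machinery that exports cholesterol and iron, while cells nearer to blood monocytes carry S100 proteins and formyl peptide receptors. HLA class II molecules show peptides to helper T cells under the control of CIITA, the master regulator of that gene family. Unfolded protein, heat and growth signals in turn call up chaperones, glycolytic enzymes and immediate early genes.

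Levels are given as TPM, the deposited unit, a transcript abundance scaled to gene length and to the library total. Changes are differences of mean log2(TPM + 1), with the standard error (SE) and the Benjamini-Hochberg adjusted p of limma over 13484 genes with a mean of at least 1 TPM in the 9 libraries. The scale understates changes of low genes. The 9 libraries held 12171 to 12944 genes at 1 TPM or more, and their depth in reads is unknown. Libraries of 1 day correlated at 0.889 to 0.896 (day 16), 0.873 to 0.88 (day 19) and 0.916 to 0.924 (day 23) across genes, and libraries of different days at 0.852 to 0.878. All 17 macrophage markers checked were measured, with a summed level of 17430 to 21540 TPM at day 16, 18090 to 19720 at day 19 and 20910 to 22970 at day 23. The sum hides moves in both directions: 4 of the 17 rose and 4 fell from day 16 to 23. FCER1G averaged 2344 TPM at day 16 and 5889 at day 23, and AIF1 3020 and 2173. Of the other cell types checked, 0 of 10 cardiac or smooth muscle and 0 of 8 pluripotent cell markers reached the filter, and 2 of 17 fibroblast or stromal markers did, with a sum of at most 22.8 TPM. Of each of the other 10 types, 1 to 5 markers did. Mast cell, basophil or eosinophil markers summed to 5.55 to 16.8 TPM at day 16, 4.32 to 355.6 at day 19 and 0 to 47.6 at day 23. Most of the day 19 sum was CLC, the Charcot-Leyden crystal protein of eosinophils and basophils, at 3.18, 209.8 and 298 TPM; its part in the day 19 results was not tested. In bulk RNA, fewer cells of a type and less RNA per cell cannot be told apart.

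Between days 16 and 23, 475 genes rose (3.52% of those tested) and 582 fell (4.32%), together 7.84%. The first step moved far fewer: from day 16 to 19, 65 genes rose (0.482%) and 84 fell (0.623%), together 1.11%. From day 19 to 23, 489 rose (3.63%) and 494 fell (3.66%), together 7.29%. An unadjusted p under 0.05 was reached by 2860, 2038 and 2971 genes in these comparisons. The median change over all genes was -0.08 from day 16 to 23, -0.06 from day 16 to 19 and -0.03 from day 19 to 23. The libraries of 2 days did not overlap for 27.6, 17.7 and 26.5% of the genes tested.

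Much of the total TPM lay in 4 genes with clone-based names beginning in FP, at 21.3% ± 5.27 (SD, n = 3) at day 16, 28.5% ± 4.09 at day 19 and 17.6% ± 2.24 at day 23. Of these 4, 3 hold equal values in every library, so their levels cannot be told apart. With these genes removed and the rest rescaled, the median gene moved by -0.14 from day 16 to 23, by 0.05 to day 19 and by -0.20 from day 19 on. The split of calls then became 432 higher and 683 lower, 144 and 74, and 352 and 917. Scaling by the median ratio of genes gave 569 and 535 from day 16 to 23, and 95 and 102 from day 16 to 19. Of the genes called both with and without a given scaling, 0 changed sign. Without limma's prior that depends on the mean level, the calls were 593, 16 and 487. The first step was the least stable: leaving out 1 library left 17 to 116 calls, with 62, 17 and 24 without replicates 1, 2 and 3 of day 16 and 58 and 24 without replicates 1 and 2 of day 19. From day 16 to 23 the count was 699 without replicate 3 of day 16, and 673, 649 and 651 without replicates 1, 2 and 3 of day 23. From day 19 to 23 it was 645 without replicate 1 of day 19, and 615, 467 and 485 without replicates 1, 2 and 3 of day 23.

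**Figure D1:**
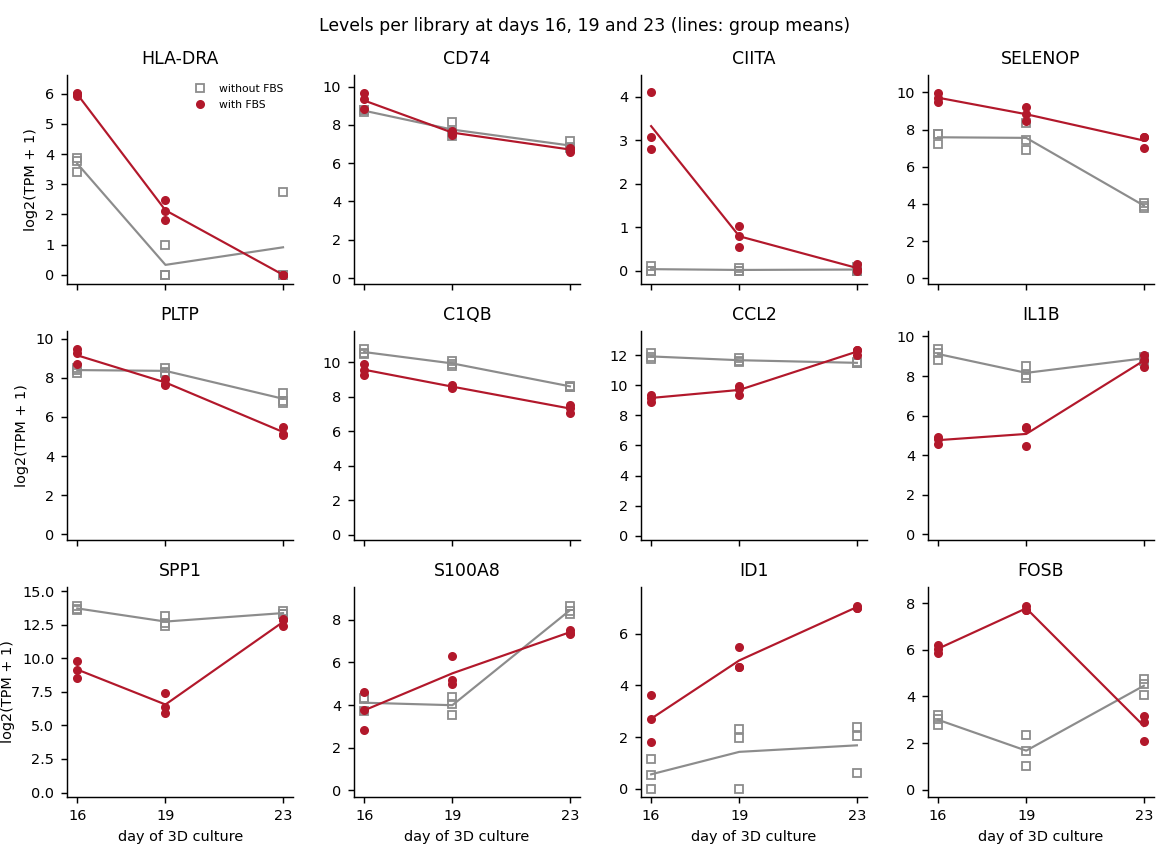
Level of 12 genes in every library, as log2(TPM + 1) against day of culture; red circles are libraries with FBS in the label, open grey squares those without, and lines join group means. HLA-DRA, CD74 and CIITA dropped by day 19 and again by day 23, SPP1 dipped at day 19 before it climbed, and FOSB peaked at day 19.

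Most HLA class II genes fell. Of 12 genes of the antigen-presenting family in the table, 10 were tested and 8 fell from day 16 to 23, while 0 rose; the median change was -2.85 against -0.08 over all genes. HLA-DRA, the shared alpha chain of HLA-DR, stood at 60.3, 64.6 and 62.5 TPM at day 16 and at 3.37, 4.58 and 2.5 at day 19. It was listed at 0 in all 3 libraries of day 23 (adjusted p = 1.12e-06). HLA-DRB1, the partner beta chain, went from 44.6, 56.1 and 51.3 TPM through 3.17, 8.14 and 1.88 to 0, 1.41 and 0.32, a change of -5.13 (SE 0.47) with adjusted p = 5.66e-05. For both genes the day 16 libraries lay far above the other 6, and the lowest levels were at day 23. HLA-DRB5, a near-identical copy whose reads may be split with HLA-DRB1, changed by -2.36.

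CD74, the invariant chain that guides class II molecules to the lysosome, read 449, 809.9 and 648 TPM at day 16, 195, 178 and 205 at day 19 and 96.6, 110.5 and 105 at day 23. The 3 days did not overlap, and CD74 fell by 2.56 on the log2 scale (SE 0.19, adjusted p = 1.31e-05). CIITA, the transactivator that switches the family on, went from 5.9, 7.45 and 16.1 TPM to 0.47, 0.74 and 1.03 and then to 0.11, 0 and 0.03 (change -3.26 (SE 0.49), adjusted p = 0.00199). Every day 16 library of CIITA exceeded every later one. HLA-DMB and HLA-DMA, the chains of the peptide editor HLA-DM, changed by -3.21 and -2.43, and HLA-DPA1 by -3.13.

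Most of this loss came early. From day 16 to 19, 6 of the 10 fell and 0 rose (median -2.22), and from day 19 to 23, 4 fell and 0 rose (median -0.81). HLA-DRA changed by -3.85 (SE 0.33) in the first step (adjusted p = 0.00122), and CD74 by -1.68 (SE 0.19) (adjusted p = 0.00497). Those calls of HLA-DRA and CD74 held whichever library was left out, but the falls to day 19 came to 2 without replicate 2 or 3 of day 16 and to 3 without replicate 2 of day 19. The falls from day 19 to 23 came to 2 without replicate 1 of day 19 and to 1 without replicate 1 or 3 of day 23. With a minimum of 5 TPM, fewer members were tested, and 5 fell from day 16 to 23. HLA class I and antigen processing genes gave a different picture: of 14 tested, 0 rose and 0 fell, with a median of -0.23, though 1 to 3 fell under 8 of the other settings.

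The class II promoters share a short element called the Y box. To show it, the 250 bases before the start in RefSeq promoters (GRCh38.p14) were searched for CTGATTGG on both strands. It was present in HLA-DRB5, HLA-DRB1, HLA-DQB1 and HLA-DMA, which is 4 of the 8 members with an entry, and in 3.81% of 35116 promoters. The motif was chosen after the values were seen, and a match describes letters, not binding. The Y box is in capitals in HLA-DRB1 (chr6:32589860-32589927, minus strand), HLA-DRB5 (chr6:32530343-32530410, minus strand) and HLA-DMA (chr6:32953142-32953209, minus strand), each read 5′ to 3′ along its gene and lying before the start.
HLA-DRB1: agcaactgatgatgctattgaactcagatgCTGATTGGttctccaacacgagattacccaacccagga
HLA-DRB5: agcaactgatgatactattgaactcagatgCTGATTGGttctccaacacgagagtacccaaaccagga
HLA-DMA: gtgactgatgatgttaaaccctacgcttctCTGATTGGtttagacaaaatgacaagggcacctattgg

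Some genes of lipid export and of the tissue-resident programme fell as well. Liver X receptors (LXR) are nuclear receptors for oxidised cholesterol that turn on export genes. Of 18 LXR targets and cholesterol efflux genes, 8 fell and 1 rose, with a median of -0.72. PLTP, the phospholipid transfer protein, read 415, 698 and 624 TPM at day 16, 207, 241 and 199.96 at day 19 and 33.8, 32.8 and 43.7 at day 23. The days did not overlap, and PLTP fell by 3.92 on the log2 scale (SE 0.21, adjusted p = 1.07e-06). NR1H3, the gene of LXR alpha itself, went from 60.03, 91.9 and 98.3 TPM through 40.2, 37.8 and 76.8 to 12.3, 7.18 and 11.1 (change -2.91 (SE 0.32), adjusted p = 0.000209). All 3 day 23 libraries of NR1H3 lay below all others. CYP27A1, which makes the LXR ligand 27-hydroxycholesterol, changed by -2.40, APOC1, an apolipoprotein, by -1.69, and ABCA1, the pump that loads cholesterol onto apolipoprotein A-I, by -1.30. ABCG1, MYLIP and SMPDL3A also fell. LIPA, the lysosomal acid lipase, was the member that rose (0.77, adjusted p = 0.0378), a call lost when any library except replicate 3 of day 16 was left out. The falls came to 5 without replicate 2 or 3 of day 16 or replicate 1 of day 23, and to 5 with no filter on low values.

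Of 21 resident macrophage genes, 12 fell and 1 rose from day 16 to 23, with a median of -0.66. The list's move came late: 2 fell and 1 rose by day 19 (0 and 0 without replicate 2 or 3 of day 16), and 13 fell and 1 rose from day 19 to 23. SELENOP, which carries selenium in plasma and marks resident cells, read 727, 1001 and 820.4 TPM at day 16, 450.2, 347 and 598 at day 19 and 128, 195 and 194 at day 23 (change -2.31 (SE 0.22), adjusted p = 7.01e-05). MS4A6A, a tetraspanning membrane protein of macrophages, went from 994, 975 and 964 TPM to 744, 717 and 811 and 167, 222 and 190.2 (change -2.34 (SE 0.12), adjusted p = 1.07e-06). F13A1, the A subunit of coagulation factor XIII, stood at 651, 857 and 773 TPM at day 16, at 646, 534 and 681 at day 19 and at 160.01, 190.4 and 163 at day 23 (change -2.14 (SE 0.15)). In these 3 genes the day 23 libraries lay below every earlier library, and for SELENOP and MS4A6A the 3 days were fully separate.

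SLC40A1, the iron exporter ferroportin, changed by -3.18, and IGF1, a growth factor made by resident macrophages, by -2.13. VSIG4, the complement receptor of resident cells, was the exception: it read 435, 524 and 474 TPM at day 16, 423, 329.7 and 449.98 at day 19 and 875, 961 and 947 at day 23. All day 23 libraries exceeded all others, and VSIG4 rose by 0.96 (adjusted p = 0.00122; 0.0535 without limma's mean-dependent prior). CD163, the haemoglobin scavenger receptor, and MRC1, the mannose receptor, changed by -0.19 and -0.16 (adjusted p = 0.642 and 0.708). LYVE1, a hyaluronan receptor, stood higher at day 19 (96.6, 80.9 and 127 TPM) than at day 16 (41.2, 62.4 and 38.1) or day 23 (23.8, 35.8 and 28.2). Its fall from day 19 to 23 passed the test (-1.75 (SE 0.26), adjusted p = 0.00211).

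Complement genes overlap with that list through C1q. Of 17 tested, 6 fell and 2 rose, with a median of -0.60. C1QB, a chain of the C1q recognition molecule, read 606, 941 and 745 TPM at day 16, 402, 359.8 and 382 at day 19 and 164, 185 and 131 at day 23, with no overlap (change -2.24 (SE 0.18), adjusted p = 1.55e-05). C1QA, another chain, went from 2046, 2670.2 and 2640.2 TPM to 2814, 2805 and 2939 and 1740.04, 1553 and 1507, a change of -0.61 (adjusted p = 0.00541, and 0.174 without the mean-dependent prior). C1QC, the remaining chain, did not share the fall. It read 1162, 1866 and 1488 TPM at day 16 and 1422, 1464 and 1313 at day 23, inside the day 16 range. SERPING1, the C1 inhibitor, CFB and CR1 were among the others that fell. ITGAM and ITGAX, the alpha chains of complement receptors 3 and 4, rose by 1.15 and 1.15. Leaving out any 1 library left 0 or 1 of these rises. Without replicate 3 of day 16, 3 of the falls were called.

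**Figure D2:**
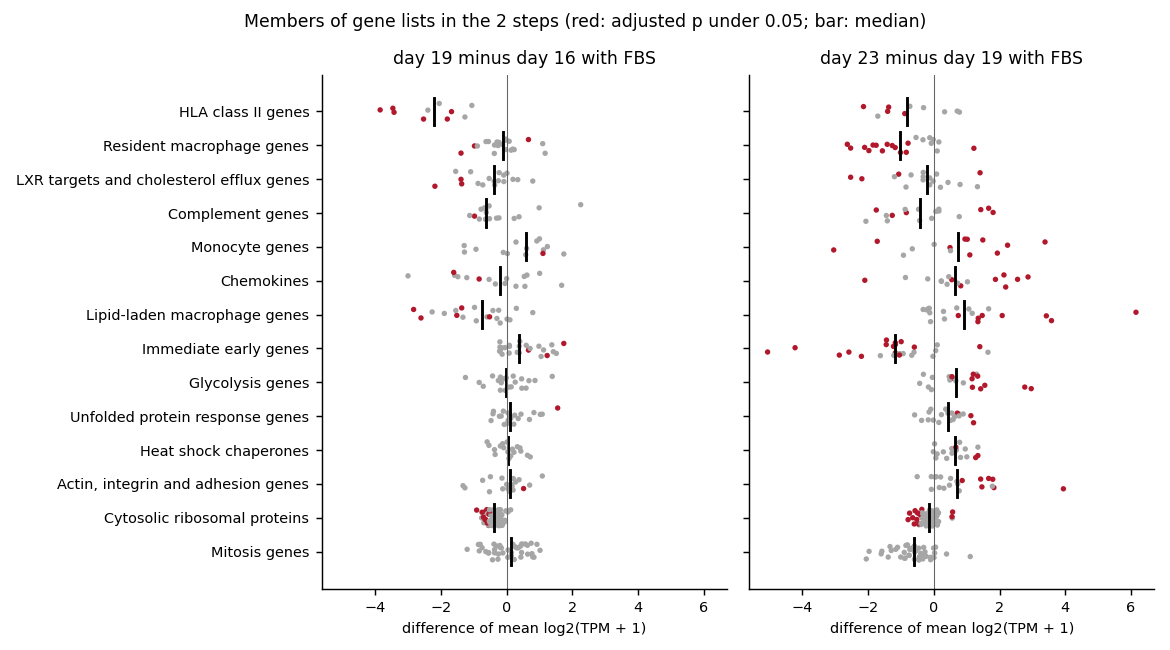
Change of each tested member of 14 gene lists from day 16 to 19 and from day 19 to 23 with FBS, as the difference of mean log2(TPM + 1); red points had an adjusted p under 0.05 and the bar is the list's median. HLA class II genes moved mostly in the first step, and resident macrophage and immediate early genes mostly in the second.

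Immediate early genes, which cells transcribe within minutes of a signal, were a mixed group. Of 25 tested, 10 fell and 2 rose from day 16 to 23, with a median of -0.78. By day 19, 3 had risen and 0 had fallen (median 0.38; 0 or 1 rise with any 1 library left out), and from day 19 to 23, 14 fell and 1 rose (median -1.17). FOSB, an AP-1 subunit, read 65.5, 72.9 and 58.2 TPM at day 16, 212, 238 and 211 at day 19 and 3.28, 6.57 and 8.06 at day 23. The 3 days were separate, with the peak at day 19, and the change from day 16 to 23 was -3.32 (SE 0.27) (adjusted p = 2.07e-05). NR4A1, an orphan nuclear receptor, went from 5.25, 12 and 8.14 TPM to 18.6, 23 and 29.2 and then 0, 1.2 and 0 (change -2.80 (SE 0.43), adjusted p = 0.00224). FOS, the founding AP-1 subunit, stood at 909, 1154 and 963 TPM, then 924, 684 and 1040.2, then 335, 427 and 404 (change -1.37 (SE 0.16), adjusted p = 0.000357). Days 16 and 19 overlapped for FOS, and day 23 lay below both.

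DUSP1, a phosphatase that shuts off MAP kinases, changed by -1.39, JUNB, another AP-1 subunit, by -0.97, and EGR1, a zinc finger factor, by -0.78. EGR2, NR4A2, BTG2 and IER2 also fell. The call of EGR1 was lost without replicate 2 or 3 of day 16 (adjusted p = 0.0521 and 0.0635) or replicate 3 of day 23 (0.0713), and that of JUNB without the mean-dependent prior. The 2 that rose were FOSL1 and DUSP4. TNF, a cytokine gene of the same quick kind, was raised by day 19: it read 94.8, 70.9 and 56.9 TPM at day 16, 169, 172 and 197 at day 19 and 145, 139.8 and 177 at day 23 (day 16 to 23, 1.06, adjusted p = 0.0068; 0.0592 without the mean-dependent prior). Both later days lay above day 16.

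Among chemokines, rises outnumbered falls. Of 16 chemokines tested, 7 rose and 2 fell from day 16 to 23, with a median of 0.82, and from day 19 to 23, 7 rose and 1 fell. CCL2, which draws monocytes through CCR2, read 575, 667 and 481 TPM at day 16, 853, 663 and 995 at day 19 and 4101, 5325 and 5172 at day 23. The day 23 libraries lay above all 6 others, and CCL2 rose by 3.08 (SE 0.17, adjusted p = 1.09e-06). CXCL8, the neutrophil attractant interleukin-8, went from 82.3, 101 and 58.9 TPM to 67.8, 25.4 and 91.2 and 165, 268 and 353 (change 1.65 (SE 0.42), adjusted p = 0.0317). Its call was lost when any library except replicate 1 of day 23 was left out (adjusted p of 0.0517 to 0.128). CCL7, CXCL1, CCL3, CCL3L1 and CCL4L2 also rose; CCL3L1 and CCL4L2 are near-identical to CCL3 and CCL4, and their reads may be split. CXCL12, the stromal chemokine, fell from 14.3, 43.4 and 39.4 TPM to 1.16, 1.36 and 1.53 (-3.68 (SE 0.53), adjusted p = 0.00139). CCL24, an eosinophil attractant, read 8.6, 16.8 and 17 TPM at day 16 and was listed at 0 in all day 23 libraries (adjusted p = 0.00453). The rises came to 4 without replicate 1 of day 16 or replicate 2 or 3 of day 23, and to 3 without the mean-dependent prior.

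IL1B, the precursor of the fever cytokine interleukin-1 beta, read 27, 29 and 22.6 TPM at day 16, 39.8, 20.8 and 41.7 at day 19 and 349, 449 and 538 at day 23. All day 23 libraries stood far above the rest, and IL1B rose by 4.02 (SE 0.27, adjusted p = 6.75e-06). Of 18 interleukin and TNF family cytokines, IL1B and TNF rose and TNFSF10, the death ligand TRAIL, fell, the last a call lost without any single library. By contrast, of 20 subunits and feedback inhibitors of NF-kB, the factor that drives many of these cytokines, 0 rose and 3 fell (median 0.01). Of 32 type I interferon response genes, 2 rose and 4 fell (median -0.03; 0 or 1 rise with any 1 library left out), and of 18 Toll-like receptors and adaptors, 1 rose and 0 fell.

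Monocyte genes rose in part. Of 14 tested, 6 rose and 1 fell, with a median of 0.85. S100A8, a subunit of the calprotectin pair of monocytes and neutrophils, read 12.7, 23.8 and 6.16 TPM at day 16, 35.4, 78.3 and 30.4 at day 19 and 184, 166 and 162 at day 23 (change 3.67 (SE 0.43), adjusted p = 0.0003). S100A9, its partner, was abundant throughout at 961, 1117 and 974 TPM, then 970.3, 1005 and 864, then 1779, 2112 and 1868 (change 0.92 (SE 0.11), adjusted p = 0.000318). For both genes the day 23 libraries lay above all others. MCEMP1, a membrane protein of monocytes and mast cells, was listed at 0 in all day 16 libraries and read 11.8, 21.5 and 12.9 TPM at day 23 (adjusted p = 0.00122). CD14, the lipopolysaccharide co-receptor, rose by 0.78, and CD93 and FPR1 also rose, FPR1 with adjusted p of 0.0542 to 0.0842 without replicate 1 or 2 of day 16 or any of the day 23 replicates. S100A9 and CD14 kept their calls without any single library but not without the mean-dependent prior. THBS1, thrombospondin, peaked at day 19: it read 425, 483 and 497 TPM, then 912, 999.8 and 1116, then 141, 99.9 and 126 at day 23. The days were separate, and THBS1 fell by 1.94 on the log2 scale from day 16 to 23 (adjusted p = 1.43e-05).

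Receptors for antibody, debris and microbes changed in both directions. Of 14 Fc receptors and adaptors, 5 rose and 2 fell (1 without replicate 2 or 3 of day 16 or replicate 2 of day 23). FCGR1A, the high-affinity IgG receptor CD64, went from 108, 88.2 and 70.7 TPM through 135, 79.6 and 109.5 to 414, 479.8 and 466 (change 2.35 (SE 0.21), adjusted p = 5.28e-05). FCGR3A, the IgG receptor CD16, read 68, 80.6 and 75.8 TPM, then 56.9, 43.1 and 54.1, then 171, 186 and 187 (change 1.27 (SE 0.17), adjusted p = 0.000923). FCGR2B, the inhibitory IgG receptor, fell from 22.1, 12.4 and 6.12 TPM to 0.37, 0.72 and 1.34 and 0, 0.47 and 0 (change -3.51 (SE 0.53), adjusted p = 0.00186). The activating receptors were thus highest at day 23 and the inhibitory one at day 16; each of these genes has a near-identical copy, so its level is uncertain.

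Of 16 scavenger receptors, 3 rose and 2 fell. The summed level of the 18 listed was 9538 to 10030 TPM at day 16 and 13660 to 14810 at day 19. At day 23 the sum was 6769 to 7999 TPM, below every earlier library. MARCO, which binds bacteria and particles, read 2.64, 3.61 and 4.19 TPM at day 16, 7.93, 5.09 and 2.58 at day 19 and 33.5, 59.1 and 90.6 at day 23 (change 3.70 (SE 0.43), adjusted p = 0.000288). CLEC5A, a lectin that senses viruses and signals through DAP12, went from 1.14, 1.7 and 2.15 TPM to 6.8, 4.96 and 5.88 and 41.5, 57.8 and 67.3 (change 4.40 (SE 0.32), adjusted p = 9.17e-06). For both genes all day 23 libraries lay above the other 6. CLEC5A was lowest at day 16, while days 16 and 19 overlapped for MARCO. MSR1 rose, and CD163L1 and STAB1 fell; STAB1 had adjusted p = 0.0693 with no filter on low values and 0.0563 with median-ratio scaling. Of 14 genes for the uptake of dying cells, MERTK, TREM2 and LRP1 rose, and GAS6, the bridge to MERTK, and STAB1 fell. Without replicate 2 of day 16, 5 rose. The 17 listed uptake genes summed to 7954 to 8299 TPM at day 16 and 11810 to 13640 at day 19. At day 23 their sum was 5730 to 7079 TPM.

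SPP1 dipped before it climbed. SPP1, osteopontin, read 561, 367 and 906 TPM at day 16, 80.9, 59.3 and 168 at day 19 and 5379.7, 7619 and 7271 at day 23. The 3 days were separate, with a first step of -2.61 (SE 0.36) (adjusted p = 0.0107) and a second of 6.15 (SE 0.36) (adjusted p = 3.01e-06). GPNMB, a glycoprotein of lipid-laden and bone-resorbing cells, followed the same course, at 41, 51 and 30.2 TPM, then 3.31, 2.09 and 13.2, then 55.9, 71.7 and 77.6. From day 16 to 23 GPNMB changed by 0.75 (adjusted p = 0.407). Of 20 genes on that list, 0 rose and 5 fell by day 19 (median -0.76; 1, 1, 2 and 1 without replicates 2 and 3 of day 16 and 1 and 2 of day 19), and 8 rose and 0 fell from day 19 to 23 (median 0.91). From day 16 to 23, SPP1, TREM2, CTSD and CTSB rose and APOC1 fell. TREM2, a lipid-sensing receptor, was not lower at day 19 and rose after it, at 180.4, 199.8 and 252 TPM, then 247, 229 and 298, then 674, 749 and 717 (change 1.77 (SE 0.15), adjusted p = 3.7e-05). Days 16 and 19 overlapped for TREM2.

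The ferritins shared the dip. FTH1, the heavy chain of the iron store, read 13988, 16299 and 15989.5 TPM at day 16, 8812, 8879 and 11541 at day 19 and 33331, 33712 and 36822 at day 23. The days were separate, with steps of -0.67 and 1.84 (adjusted p = 0.0131 and 1.57e-06). The first was lost without replicate 2 or 3 of day 16 or replicate 1 or 2 of day 19 (adjusted p of 0.0522 to 0.0686). FTL, the light chain, stood at 87459, 94950.2 and 92978 TPM, then 68472, 66384 and 71989.5, then 106790.00, 110619 and 107265 (steps of -0.41 and 0.65). Of 16 iron handling genes, 4 rose and 3 fell from day 16 to 23: STEAP3 and SLC11A1 joined the ferritins, and SLC40A1, TFRC, the transferrin receptor, and BLVRB fell. Some libraries decided those counts: 2 rose without replicate 1 or 3 of day 16 or of day 23, and 1 fell without replicate 2 or 3 of day 16 or replicate 1 of day 23. Of 41 lysosome genes, 6 rose and 2 fell (median 0.19), with 3 rises without replicate 1 of day 16 or of day 23 and 1 without the mean-dependent prior. CTSD, the aspartic protease cathepsin D, went from 2007, 2496 and 2726 TPM to 2395, 2725 and 2577 and 4741, 4186 and 3991 (change 0.85 (SE 0.12), adjusted p = 0.000933).

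Several chaperones of the endoplasmic reticulum rose. Of 21 unfolded protein response genes, 9 rose and 1 fell from day 16 to 23, with a median of 0.77. HSPA5, the chief chaperone BiP, read 42.5, 52.8 and 46.7 TPM at day 16, 68.8, 56.4 and 68.1 at day 19 and 91.5, 95 and 105 at day 23. The 3 days were separate, and HSPA5 rose by 1.02 (SE 0.18, adjusted p = 0.00487). SDF2L1, a BiP partner, went from 29.7, 41.5 and 40.1 TPM through 68.4, 50.8 and 82.6 to 156, 162 and 121 (change 1.96 (SE 0.23), adjusted p = 0.000307). HSP90B1, the chaperone GRP94, stood at 122, 132 and 95.3 TPM, then 132, 138 and 174, then 237, 241 and 249 (change 1.07 (SE 0.17), adjusted p = 0.00264). PDIA3, a disulfide isomerase, was higher from day 19, where its call was lost without replicate 2 of day 16 or of day 19 (adjusted p = 0.058 and 0.0598): it read 64.4, 67.7 and 82.3 TPM at day 16, 147, 231 and 274 at day 19 and 234, 221 and 174 at day 23. All later libraries of PDIA3 exceeded day 16. HYOU1, CRELD2, CALR, MANF and PDIA6 rose too. XBP1, the transcription factor of the response, fell: it went from 152, 165 and 182 TPM to 127, 125 and 125 and 70.04, 96.7 and 85.5 (change -0.98 (SE 0.17), adjusted p = 0.0038). The rises came to 5 without replicate 3 of day 16 or replicate 2 of day 23, and to 4 without the mean-dependent prior.

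The endoplasmic reticulum stress element, known from promoters of such chaperones, is spelled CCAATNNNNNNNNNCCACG and was read on both strands. It was present in the RefSeq promoters (GRCh38.p14) of CANX, HSPA5, HSP90B1, CALR, XBP1 and CRELD2, which is 6 of the 20 members with an entry, and in 26 of all 35116 promoters (0.074%). The element was chosen after the values were seen. It occurs in XBP1, which fell, and in HSPA5, HSP90B1 and CALR, which rose. Capitals mark it in HSPA5 (chr9:125241361-125241439, minus strand), HSP90B1 (chr12:103930186-103930264, plus strand) and XBP1 (chr22:28800573-28800651, minus strand), and its reverse complement in CALR (chr19:12938359-12938432, plus strand), all before the start.
HSPA5: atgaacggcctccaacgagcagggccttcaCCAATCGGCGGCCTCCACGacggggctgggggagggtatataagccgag
HSP90B1: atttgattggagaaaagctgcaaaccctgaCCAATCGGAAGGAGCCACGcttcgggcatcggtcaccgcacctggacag
XBP1: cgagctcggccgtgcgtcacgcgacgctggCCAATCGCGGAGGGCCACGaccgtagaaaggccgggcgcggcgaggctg
CALR: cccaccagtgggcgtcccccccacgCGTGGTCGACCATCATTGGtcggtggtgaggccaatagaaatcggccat

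Of 18 heat shock chaperones of the cytosol, 5 rose and 0 fell, with a median of 0.69. HSPA8, the constitutive HSC70, read 112, 155 and 116 TPM at day 16, 139, 103 and 144 at day 19 and 266, 344 and 323 at day 23 (change 1.29 (SE 0.19), adjusted p = 0.00159). HSPA1A, the stress-induced HSP70, went from 42.8, 49.4 and 40.1 TPM to 62.5, 76.3 and 67.6 and 84.2, 82.6 and 85.5 (change 0.92 (SE 0.18), adjusted p = 0.00805). HSPA8 was raised at day 23 alone, and the 3 days of HSPA1A were separate. STIP1, HSP90AB1 and HSP90AA1 were the others. Without replicate 1 of day 16, without replicate 2 or 3 of day 23 or without the mean-dependent prior, 2 rises were called. The heat shock element TTCNNGAA, searched on both strands, was present in the promoters of HSPA6, CHORDC1 and HSPA8, 3 of 17 members with an entry, and in 6.62% of all. It is in capitals in the stretch of HSPA8, the member with the largest rise among those 3 (chr11:123062154-123062221, minus strand, RefSeq, GRCh38.p14).
HSPA8: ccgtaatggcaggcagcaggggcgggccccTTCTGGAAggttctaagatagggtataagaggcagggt

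Glycolysis calls came in the second step. Of 21 tested, 10 rose and 0 fell from day 16 to 23 (median 0.81), 0 rose and 0 fell by day 19, and 10 rose and 0 fell from day 19 to 23 (median 0.67). GAPDH, the enzyme at the middle of the pathway, read 854, 1147 and 1023 TPM at day 16, 1109, 1021 and 1024 at day 19 and 2462, 2458 and 2333 at day 23. Days 16 and 19 overlapped and day 23 lay above both (change 1.27 (SE 0.11), adjusted p = 3.7e-05). PKM, pyruvate kinase, went from 99.7, 144 and 160.2 TPM to 125, 145 and 123 and 409, 370.1 and 377 (change 1.54 (SE 0.18), adjusted p = 0.000313), and ENO1, enolase, from 137, 167 and 173 TPM to 186, 159.9 and 202 and 392, 466 and 374 (change 1.36 (SE 0.16)). HK3, a hexokinase of myeloid cells, changed by 1.87. Of 16 hypoxia response genes outside this pathway, 1 rose and 0 fell (median -0.23; 2 rose without replicate 3 of day 16 and 0 without replicate 3 of day 23). Of 39 nuclear respiratory chain genes, 4 rose and 0 fell (median 0.22), a count of 0 without replicate 1 of day 16, without replicate 3 of day 23 or without the mean-dependent prior, and of 1 without replicate 1 or 2 of day 23.

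**Figure D3:**
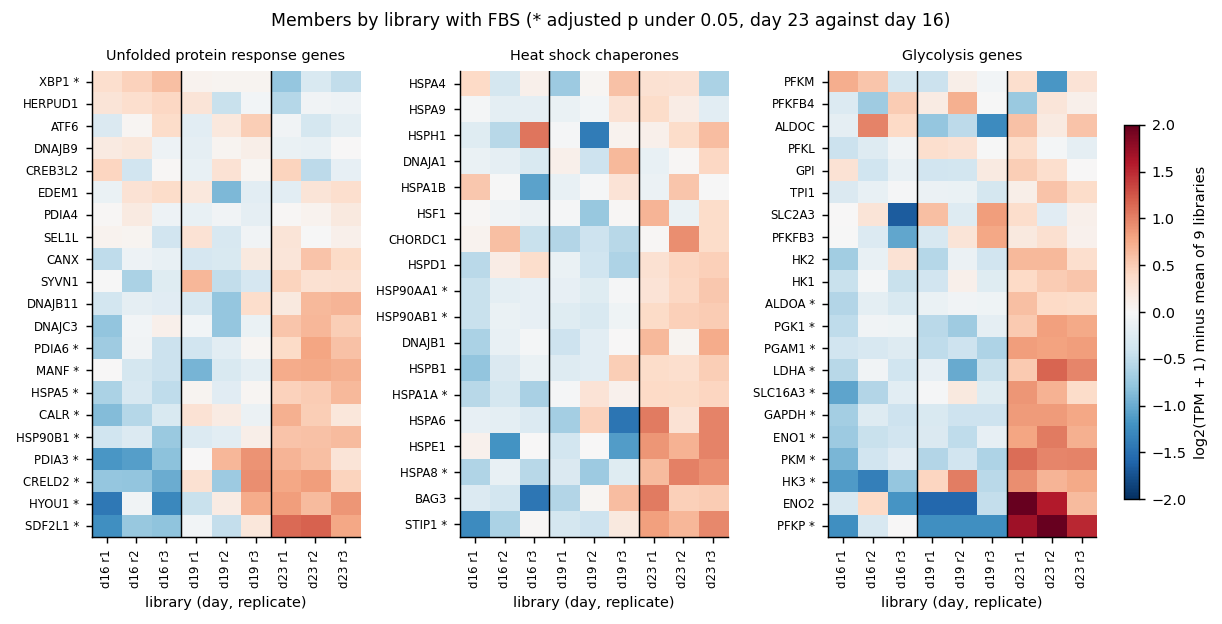
Heat map of unfolded protein response, heat shock and glycolysis genes in the 9 libraries with FBS, as log2(TPM + 1) minus the gene's mean over the 9; stars mark genes with an adjusted p under 0.05 from day 16 to 23. Of the 21 glycolysis genes 10 carry a star, as do 10 of the 21 unfolded protein response genes and 5 of the 18 heat shock chaperones.

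Most ribosomal protein genes fell. Of 76 genes for proteins of the cytosolic ribosome, 52 fell and 1 rose from day 16 to 23, with a median of -0.54. By day 19, 16 fell and 0 rose (median -0.37), and from day 19 to 23, 11 fell and 2 rose (median -0.14). The step counts were unstable: by day 19, 4, 0 and 0 fell without replicates 1, 2 and 3 of day 16 and 2, 0 and 9 without those of day 19. From day 19 to 23, 4 and 6 fell without replicates 1 and 3 of day 19, 6, 5 and 5 without those of day 23, and 38 with the FP genes removed. Their summed share of TPM was 8.38% ± 0.328 (SD, n = 3) at day 16, 6.47% ± 0.253 at day 19 and 5.62% ± 0.143 at day 23. Days 16 and 23 did not overlap, and the exact two-sided permutation p of 0.1 is the smallest that 3 libraries against 3 allow. RPS28, a small subunit protein, read 2161, 1885 and 2111 TPM at day 16, 1666, 1838 and 1780.3 at day 19 and 1039.9, 964 and 1069 at day 23 (change -1.001 (SE 0.09), adjusted p = 5.66e-05). RPS26 was the one that rose, from 289, 356 and 302 TPM to 486, 517 and 526 (0.70, adjusted p = 0.00728), and RPLP0, a stalk protein, changed by -0.12 (adjusted p = 0.637). Most ribosomal protein genes have near-identical pseudogenes, so single levels are uncertain, and without the mean-dependent prior 4 fell. Genes of ribosome assembly did not share the shift: of 30 tested, 1 rose and 1 fell (median 0.01).

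The share of the FP genes did not separate the days (difference between days 16 and 23 of -3.73 percentage points, exact two-sided permutation p = 0.4). Mitochondrially encoded genes held 8.02% ± 0.886 of TPM at day 16, 6.26% ± 0.963 at day 19 and 8.09% ± 0.627 at day 23 (exact two-sided permutation p = 0.9 between days 16 and 23). Of 10 genes kept as signs of RNA quality and of abundant non-coding RNA, 1 fell and 0 rose from day 16 to 23. From day 19 to 23, 4 of those 10 fell and 0 rose.

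**Figure D4:**
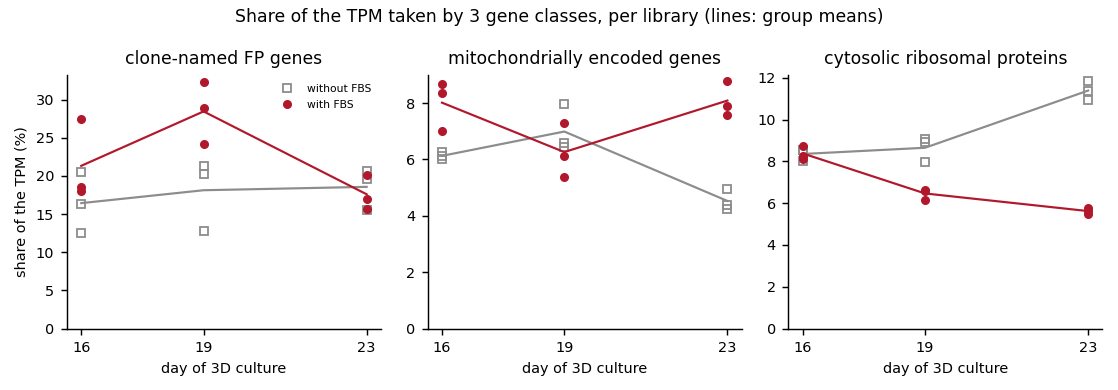
Percent of each library's TPM in the 4 clone-named FP genes, in mitochondrially encoded genes and in ribosomal protein genes, by day; filled circles are libraries with FBS in the label and open squares those without. With FBS, the ribosomal protein share fell from 8.38 to 5.62% on average, with no overlap of days 16 and 23, while the FP share ranged widely within a day.

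ID1 and ID3 rose, while no DNA replication or mitosis gene was called. ID1, an inhibitor of basic helix-loop-helix factors that answers to BMP and serum signals, read 5.47, 11.3 and 2.54 TPM at day 16, 25.2, 43.8 and 25.2 at day 19 and 127, 128 and 135 at day 23. The days were separate, and ID1 rose by 4.32 (SE 0.39, adjusted p = 5.28e-05). ID3, its relative, went from 128, 187 and 174 TPM to 264, 184 and 215 and 343, 331 and 401 (change 1.15 (SE 0.18), adjusted p = 0.00275). Of 18 ID and TGF-beta family signalling genes, 4 rose and 0 fell: ENG, a co-receptor, and TGFBI, a matrix protein, were the others.

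Of 10 self-renewal regulators, ID1, MYC, ID3 and HMGA1 rose (2 of them without replicate 1 of day 23) and KLF4 and KLF2 fell. MYC, the growth factor-driven transcription factor, read 2.01, 2.01 and 3.12 TPM at day 16, 2.64, 0.23 and 1 at day 19 and 13.1, 10.9 and 17.8 at day 23 (change 2.13 (SE 0.46), adjusted p = 0.0146). Its level was low until day 23, and its call was lost without replicate 1 of day 16 (adjusted p = 0.0503) or replicate 1 or 3 of day 23 (0.0532 and 0.0754). KLF4, a pluripotency and monocyte factor, fell from 15.8, 19 and 15.3 TPM at day 16 and 31.7, 16.2 and 21.6 at day 19 to 1.12, 4.33 and 2.59 at day 23 (change -2.36 (SE 0.38), adjusted p = 0.003). KLF2 went from 22, 47.9 and 56.6 TPM to 19.4, 4.02 and 5.25; all day 23 libraries lay below all of day 16, but the call was lost without replicate 2 or 3 of day 16 (adjusted p = 0.0609 and 0.0696) or of day 23 (0.0656 and 0.0668).

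Of 19 cyclins, CDKs and CDK inhibitors, 2 rose and 1 fell (2 fell without replicate 2 of day 23). CCND1, cyclin D1, read 8.17, 3.05 and 9.01 TPM at day 16, 32.1, 49.9 and 28.6 at day 19 and 92.1, 50.6 and 59 at day 23. All day 16 libraries lay below the rest (change 3.20 (SE 0.38), adjusted p = 0.000344). CDKN1C, the inhibitor p57, fell from 42.9, 46.1 and 41.9 TPM through 35.9, 35.8 and 44.9 to 6.69, 9.55 and 7.5 (change -2.34 (SE 0.23), adjusted p = 9.94e-05). CCND3 rose, a call lost without any 1 of the day 23 replicates. Of 38 DNA replication genes, 0 rose and 0 fell (median 0.30), and the same holds for 43 mitosis genes (median -0.71). TOP2A, the mitotic topoisomerase, read 38.3, 46 and 20.01 TPM at day 16, 80.1, 43.4 and 39.1 at day 19 and 18.5, 63.6 and 6.76 at day 23. The day 23 libraries overlapped with those of both other days. Replicate 2 held the most of day 23, and the summed level of the mitosis genes was 492.6 TPM there against 236 and 218 in replicates 1 and 3. Without replicate 2 of day 23, 2 mitosis genes fell.

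Some genes for movement and matrix breakdown rose. Of 21 actin, integrin and adhesion genes, 8 rose and 0 fell (median 0.77). ITGB2, the beta chain of leukocyte integrins, read 319, 367 and 331 TPM at day 16, 485, 474 and 492 at day 19 and 850.00, 920.3 and 874 at day 23, with no overlap (change 1.38 (SE 0.11), adjusted p = 1.43e-05). FLNA, an actin crosslinker, was uneven at day 16, with 6.62, 9.01 and 70.9 TPM, then 5.39, 12.7 and 3.45 and 96.5, 98.9 and 145 (change 2.67 (SE 0.70), adjusted p = 0.0376). The FLNA call was lost without any library except replicate 3 of day 16 (adjusted p of 0.0887 to 0.135). The rises came to 5 without replicate 1 or 2 of day 16, to 4, 3 and 3 without replicates 1, 2 and 3 of day 23, and to 3 without the mean-dependent prior. Of 13 matrix metalloproteinases and their inhibitors, MMP9, MMP12, ADAM8 and MMP14 rose and 0 fell; the call of ADAM8 was lost without any 1 library (adjusted p of 0.0561 to 0.168). MMP9, gelatinase B, went from 4.19, 10.1 and 2.85 TPM to 9.44, 16 and 7.96 and 106, 50.9 and 45.5 (change 3.39 (SE 0.45), adjusted p = 0.000777), and MMP14, the membrane-bound collagenase, from 7.86, 7.81 and 6.83 TPM to 28.8, 26.4 and 17 and 45.1, 30.4 and 29.6 (change 2.06 (SE 0.29)). MMP9 passed the test from day 19 to 23 (adjusted p = 0.00725).

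Outside the lists, the largest rises were in genes of varied roles. SNCG, gamma-synuclein, read 0, 0.89 and 0 TPM at day 16, 13.3, 10.7 and 13.4 at day 19 and 58.6, 47.1 and 59.4 at day 23 (change 5.49 (SE 0.34), adjusted p = 3.38e-06). It rose in each step, and its first call held whichever library was left out. ADGRG1, the adhesion receptor GPR56, went from 0, 0 and 0.15 TPM to 1.04, 0.26 and 1.83 and 17.9, 18 and 25.5 (change 4.34 (SE 0.45)). PROCR, the endothelial protein C receptor, rose from 3.16, 5.65 and 3.36 TPM to 9.76, 15.9 and 22.8 and 49.4, 62.6 and 73.9 (change 3.65 (SE 0.34)). LGALS12, a galectin, LBH, a transcription cofactor, MARCKSL1, a membrane-actin linker, and HTRA1, a serine protease, changed by 3.87, 3.85, 4.10 and 3.61. NPY, the neuropeptide Y precursor, was listed at 0 in all day 16 libraries and read 30.4, 16.8 and 9.43 TPM at day 23 (adjusted p = 0.00696). All 3 day 23 libraries of each of these genes exceeded all 3 of day 16. The rule for naming the largest changes required such separation, so it adds no support. Of 13 endothelial markers, 3 were tested, and from day 16 to 23 1 rose and 2 were not called. CDH5, VE-cadherin, rose and averaged 1.7 ± 0.24 TPM (SD, n = 3) at day 16 and 12.2 ± 2.72 at day 23. PECAM1 averaged 24.2 TPM at day 16 and 19.2 at day 23. EGFL7 averaged 88.9 TPM at day 16, 281.3 at day 19 and 94.7 at day 23.

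The largest falls included several non-coding transcripts. GGTA1P, a pseudogene of the alpha-galactosyltransferase, read 93, 129 and 96.3 TPM at day 16, 67.1, 64.2 and 68.5 at day 19 and 3.33, 4.48 and 4.55 at day 23 (change -4.38 (SE 0.22), adjusted p = 1.07e-06). DPEP2, a dipeptidase that trims leukotrienes, fell from 39.8, 40.8 and 43.3 TPM through 32.3, 31.6 and 44.1 to 1.82, 1.54 and 1.3 (change -4.05 (SE 0.26)). TNFRSF25, a death domain receptor, went from 59.4, 53.2 and 60.1 TPM to 115, 132 and 62.6 and 4.04, 2.78 and 2.41 (change -3.86 (SE 0.30)). ADHFE1, an alcohol dehydrogenase, LINC00996 and LINC00173 changed by -3.60, -3.69 and -4.19. HNRNPKP5, a pseudogene, was listed at 0 in all day 23 libraries after 15.6, 14 and 7.95 TPM at day 16 (adjusted p = 0.0312). CCDC152 changed by -4.62 and IER3-AS1 by -4.31, the latter a call lost without any library except replicate 3 of day 23 (adjusted p of 0.0688 to 0.115). CCDC152 overlaps SELENOP and IER3-AS1 lies against IER3, and the library kit does not mark strand, so reads of the partners cannot be told apart. IER3 itself changed by -0.17 (adjusted p = 0.524).

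Set beside the same days without FBS, the course differed in many genes. A fit of all 18 libraries at days 16, 19 and 23 tested 13290 genes for a difference between the changes from day 16 to 23. The change with FBS was higher than without for 1440 genes (10.8%) and lower for 711 (5.35%), together 16.2%, with a median difference of 0.19. In that fit 683 genes rose (5.14%) and 710 fell (5.34%) with FBS, and 858 rose (6.46%) and 2037 fell (15.3%) without, where the median gene changed by -0.27. Median-ratio scaling gave 1088 higher and 1011 lower, with a median of -0.04, so the balance of directions depends on the scaling.

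**Figure D5:**
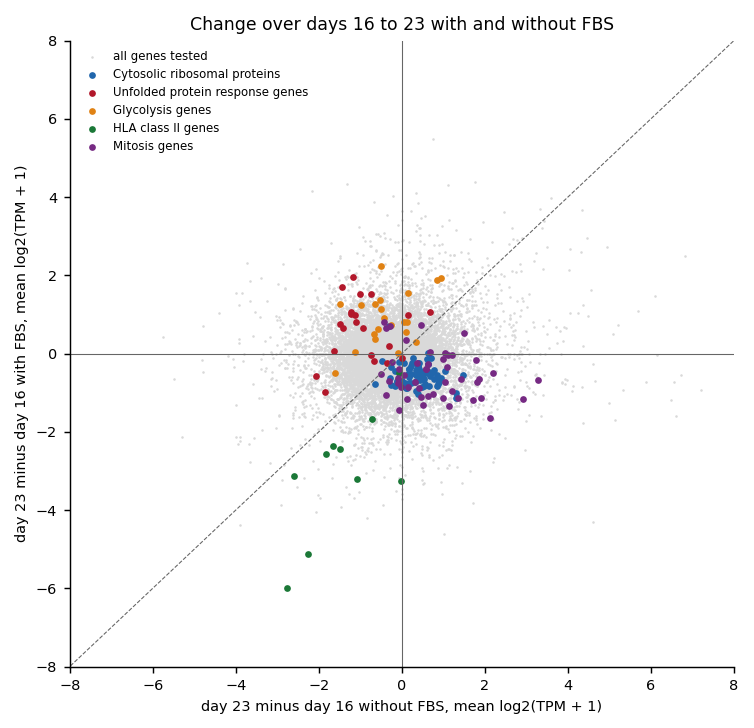
Change from day 16 to 23 of each gene without FBS (x axis) and with FBS (y axis), as differences of mean log2(TPM + 1); grey points are all genes tested, coloured points 5 gene lists, and the dashed line marks equal change. Of 76 ribosomal protein genes 74 lie below the line, and unfolded protein response and glycolysis genes lie mostly above it.

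Stress and ribosome genes were among those that differed. For 14 of 21 unfolded protein response genes the change was higher with FBS and for 0 it was lower; without FBS, 1 rose and 14 fell. HSPA5 read 113, 108 and 127 TPM at day 16 and 58.1, 50.8 and 40.2 at day 23 without FBS, so that its groups ran in opposite directions (difference 2.24, adjusted p = 2.29e-05). The change was also higher for 11 of 18 heat shock chaperones and 11 of 21 glycolysis genes, and lower for 0 of either. Without FBS, GAPDH stood at 2788, 2664 and 3243 TPM and then 1948, 1928 and 1659, above its day 16 level with FBS on both days (difference 1.92, adjusted p = 3.66e-07). Of 76 ribosomal protein genes, the change was lower with FBS for 67 and higher for 1; without FBS 47 rose and 2 fell. RPS28 went from 1413, 1353 and 1284 TPM to 3698, 2879.5 and 3539 there (difference -2.31, adjusted p = 1.17e-08). These lists kept their direction under both other scalings, with 71 and 70 lower ribosomal protein genes and 13 higher unfolded protein response genes.

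Resident macrophage genes had falls in both courses: 18 of 21 fell without FBS, and the change was higher with FBS for 10 and lower for 2. F13A1 read 294, 248 and 308 TPM at day 16 and 4.77, 6.58 and 7.74 at day 23 without FBS (difference 3.14, adjusted p = 4.72e-07). LYVE1 went from 129, 114 and 148 TPM to 1.1, 3.75 and 1.45 there (difference 4.83, adjusted p = 6.23e-07). TREM2 fell without FBS, from 632, 712 and 774 TPM to 221, 208 and 193, and rose with it (difference 3.53, adjusted p = 5.74e-09). HLA class II genes also had falls in both courses: without FBS, 7 of 10 fell and 0 rose (median -1.57). Their change was lower with FBS for 4 of 10, higher for 0 and not called different for 6. For CD74 the day 16 levels with FBS were higher than without, replicate 1 only slightly, a difference that was not tested. CD74 without FBS read 442, 401 and 438 TPM at day 16 and 141, 113 and 109 at day 23. Of 18 LXR targets and cholesterol efflux genes, 2 rose and 5 fell without FBS. Their change was lower with FBS for 4, higher for 1 and not called different for 13. NR1H3 and CYP27A1 fell with FBS alone. Without it they read 27.6, 21.8 and 38 TPM and 52.6, 66.3 and 66.6 TPM at day 23, with differences of -3.78 and -3.01 (adjusted p = 0.000176 and 7.17e-05).

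Some mitosis genes differed as well. For 10 mitosis genes of 49 the change was lower with FBS and for 1 it was higher, and without FBS 11 rose and 0 fell. Of 42 DNA replication genes, the change was higher with FBS for 2 and lower for 0 (median difference 0.64), and without FBS 1 rose and 6 fell. Over all genes the change was higher for 10.8% and lower for 5.35%, and without FBS 6.46% rose and 15.3% fell. The counts of replication genes were thus near or below the shares over all genes. TOP2A without FBS went from 2.91, 10.1 and 5.42 TPM to 69.7, 53.1 and 66.8 (difference -3.95, adjusted p = 0.00367). MYC ran the other way, from 16.3, 16.7 and 19 TPM to 8, 5.74 and 6.39 without FBS (difference 3.39, adjusted p = 0.000165). For 9 of 18 ID and TGF-beta family genes the change was higher with FBS and for 0 it was lower. ID1 differed by 3.20 (adjusted p = 0.0119; 0.408 with a pseudocount of 0.1).

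Several lists held 0 or 1 call per direction from day 16 to 23 with FBS. Over all genes tested, 3.52% rose and 4.32% fell. In lists of this size such counts do not stand apart from those shares. Of 24 sterol synthesis and uptake genes 0 rose and 1 fell, of 13 fatty acid synthesis genes 0 rose and 1 fell (0 without any 1 library), of 15 amino acid stress genes 0 rose and 0 fell, and of 11 osteoclast and cell fusion genes 1 rose and 0 fell. Some of the lists that follow held more. Of 18 colony-stimulating factor receptors and myeloid factors 0 rose and 5 fell, and CSF1R, the receptor that keeps macrophages alive, changed by -0.58 (adjusted p = 0.0231, lost in 5 of the 6 fits that left out 1 library of days 16 or 23). Of 11 chemokine and chemoattractant receptors 3 rose and 1 fell, a count of 1 rise without any library except replicate 3 of day 16. Of 10 metallothioneins and zinc transport genes 1 rose and 3 fell; the falls came to 1 without replicate 1 of day 16 and to 0 without replicate 2 of day 16 or replicate 1 or 3 of day 23. Their summed level was 330.7 to 544 TPM at day 16, 113.8 to 364.1 at day 19 and 87 to 180.1 at day 23, with no overlap of days 16 and 23. Of 13 mitochondrially encoded genes 0 rose and 1 fell, a call lost without any library except replicate 2 of day 16.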

How the data were processed

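Bulk RNA was extracted with TRIzol and made into SMART-seq2 libraries from polyA RNA, per the labels' protocols. The authors deposited 1 combined table of TPM for 58735 genes in 32 libraries. Per the submitters' processing notes the build was hg38 and the tools for the series included HISAT2, HTSeq 0.11.1, DESeq2 and Trim Galore 0.4.4, with no word on which one gave the TPM. Titles linked columns to samples and gave the groups, and 0 columns stayed unmatched. Of the pairs of libraries of the same day with FBS, 0 were identical, and other pairs were not compared. TPM keep no read depth, so no counting interval is given, and precision rests on 3 libraries per group. Symbols repeat for 1546 identifiers, so values are per identifier.

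TPM were used as deposited, as log2 of TPM plus a pseudocount of 1, for genes whose mean in the fitted libraries reached 1 TPM. The 9 libraries were fitted with limma 3.58.1 (R 4.3.3, empirical Bayes with a prior that follows the mean level), with Benjamini-Hochberg adjustment over all genes and a threshold of 0.05. The 18 libraries with and without FBS were fitted together for the difference between courses. Shares of TPM were compared by exact two-sided permutation tests (scipy 1.17.1, Python 3.11.15). The fit was also run on simulated libraries with known changes, and no result given here rests on that run. Alternatives were a pseudocount of 0.1, no filter, a minimum of 5 TPM, median-ratio scaling, removal of the FP genes, the replicate number as a block, array weights, a prior without trend, fits of 18 or 6 libraries, and leaving out each library.

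Members and lists (47 of gene programmes, of which 40 are described, 14 of cell types and 1 of RNA quality signs) were chosen with earlier results of these data known. Lists are described by counts and medians, without a test. Named genes were the 14 largest changes per direction from day 16 to 23, and the 5 largest in other comparisons. They needed a call, 10 TPM in the higher group, a symbol that is no clone name and, within FBS, no overlap of libraries. Separate libraries were thus a condition for naming those genes and not a result. Up to 6 called members per list, its members at 100 TPM or more and 28 macrophage, division and inflammatory genes were added. Of 385 such genes, 365 were matched by symbol to RefSeq, and the text gives a selection; 1 gene is not reported here. A few more list members, the Y box and the stress element were chosen after their values were seen. Replicate numbers did not pair the libraries: deviations of same-numbered libraries correlated at -0.0326 to 0.0118, those of other numbers at -0.0323 to 0.043.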

Additional observations from a re-analysis of the deposited data

Results flagged for a closer look

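For 43 of the genes named by the size of their change or always followed, the change from day 16 to 23 with FBS differed from that without FBS (adjusted p under 0.05 for the difference itself, limma, 18 libraries). Values are the change with FBS minus the change without, on the log2(TPM + 1) scale. Where a group is listed at 0 in every library, the fitted value depends on the pseudocount and is no bound; this holds for HLA-DRA, NPY, CCL24, HNRNPKP5, ZP3, MGAT2, NME1-NME2 and TIMD4.

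Genes that rose with FBS and fell without it were ADGRG1 (5.67), NPY (6.34), MYC (3.39) and CCL2 (3.51). IER3-AS1 fell with FBS and rose without it (-8.91). Genes that rose in both courses were SNCG (4.75) and CLEC5A (2.65), further with FBS, and S100A9 (-0.97), further without. The genes that rose with FBS and were not called without it were ID1 (3.20), MARCKSL1 (3.75), IL1B (4.24), LGALS12 (4.55), LBH (3.46), PROCR (3.42), SPP1 (3.89) and CD14 (1.08).

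HLA-DRA (-3.21), HLA-DRB1 (-2.86), DPEP2 (-1.99) and PLTP (-2.45) fell in both courses, further with FBS. CSF1R (0.88), SELENOP (1.37) and F13A1 (3.15) fell in both, further without it. CCDC152 (-5.64), LINC00173 (-3.35), CCL24 (-3.40), HNRNPKP5 (-3.71), LINC00996 (-2.54), STAB1 (-0.72) and KLF4 (-2.64) fell with FBS and were not called without it. The difference of STAB1 lost its call with no filter on low values (adjusted p = 0.0986) and without several single libraries.

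The genes that rose without FBS alone were WFDC21P (-8.19), RN7SL2 (-6.84), ZP3 (-6.27), CD52 (-6.27), MKI67 (-2.50) and TOP2A (-3.95). CD52, a small surface antigen of leukocytes, read 1.26, 2.26 and 9.98 TPM at day 16 and 207, 131 and 94.2 at day 23 without FBS, against 3.49, 1.59 and 68.3 and 0, 11.1 and 3.73 with FBS. ZP3, a zona pellucida glycoprotein, read 102, 50.1 and 51.6 TPM at day 23 without FBS and was listed at 0 in all 3 libraries with it. The genes that fell without FBS alone were LINC01002 (6.03), MGAT2 (5.52), NME1-NME2 (5.43), CD68 (2.02), MRC1 (1.95), LYVE1 (4.83) and TIMD4 (2.85). CD68, a lysosomal glycoprotein of macrophages, read 1228, 1048 and 1376 TPM at day 16 and 439.8, 392 and 351 at day 23 without FBS, against 474, 691 and 630.5 and 789, 825 and 737 with FBS.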

How the results depend on the processing

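From day 16 to 23, the 1057 calls became 593 without limma's mean-dependent prior and 649 to 726 with 1 library left out. From day 16 to 19, the 149 calls became 53 with no filter on low values, 83 with array weights, 16 without the mean-dependent prior, 400 in a fit of all 18 libraries, and 17 to 116 with 1 library left out. From day 19 to 23, the 983 calls became 655 with no filter, 487 without the mean-dependent prior, and 467 to 756 with 1 library left out. The cause of these shifts was not tested. The 2151 differences from the course without FBS stayed within 1.5 times their count under every setting run, at 1625 to 2041 with 1 library left out. Of 229 named genes called from day 16 to 23, 117 lost the call without the mean-dependent prior, 40 with no filter and 1 to 11 under the other 7 settings tested on all of them; 0 changed sign. Fewer named genes were tested with a minimum of 5 TPM, and 0 of those lost the call. With 1 library left out, 41 to 59 lost it. The difference between days 16 and 23 ranged from -5.41 to -0.697 percentage points for the FP share, from -0.429 to 0.408 for mitochondrially encoded genes and from -2.89 to -2.58 for ribosomal proteins.

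With the replicate number as a block, the calls were 931 from day 16 to 23, 57 from day 16 to 19, 729 from day 19 to 23 and 2079 for the difference between courses. The numbers did not pair the libraries, so these fits are given for completeness. The read depth behind each TPM is unknown, and low genes are limited most.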
